A study of Mus musculus with 2 samples.

Results

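The genes described here encode the collagens, the laminins and 6 other components of the extracellular matrix and basement membrane, measured cell class by cell class in the hippocampus of aged mice. They were chosen by symbol. The symbols of the collagen chains (Col, a number, a, a number) and of the laminin chains (Lama, Lamb or Lamc and a number) were joined by those of Nid1, Nid2, Hspg2, Agrn, Sparc and Fn1. This gave 61 of the 19059 genes in the files: 44 collagen chains, 11 laminin chains, 2 nidogens and 4 others. Both libraries were made from pooled C57BL/6 mice, drawn from a cohort of both sexes. Each held the hippocampi of 4 mice that were 21 months old when the 3-month diet began. The control mice ate standard chow, and the tomatidine mice ate chow with 0.05% tomatidine, a steroidal alkaloid of tomato. The comparison asks how the matrix genes of brain vessels and of other cells differed with tomatidine. With 1 library per diet there is no replicate check: mouse, dissection and library cannot be told apart from diet, and no test of the diet was made.

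A basement membrane is a thin sheet of matrix on which endothelial and epithelial cells rest and in which mural cells (pericytes and smooth muscle cells) are embedded. Laminins, trimers of 1 alpha, 1 beta and 1 gamma chain, and type IV collagen, trimers of alpha chains, form its 2 networks, and nidogens and perlecan (Hspg2) link them. Agrin is a heparan sulphate proteoglycan of the same sheet, fibronectin (Fn1) is a cell-binding glycoprotein, and Sparc is a secreted protein that binds collagen. In the brain, endothelial cells, pericytes and astrocytes all contribute to the sheet around vessels, whereas fibroblasts of the meninges and of the perivascular space make the fibrillar collagens.

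The 2 major chains of type IV collagen are encoded head to head. Col4a1 (ENSMUSG00000031502, chr8:11198423-11312826, minus strand) and Col4a2 (ENSMUSG00000031503, chr8:11312805-11449287, plus strand; GRCm38, GENCODE) start toward each other on chromosome 8, so that their first 22 bases overlap on opposite strands. The stretch is shown because the share of each chain is compared across cells below; in it, capitals mark the bases that both first exons hold, on the plus strand at chr8:11312801-11312830 (RefSeq, GRCm38.p6).
Col4a1 and Col4a2 starts: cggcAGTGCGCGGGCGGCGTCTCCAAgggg
Promoters were matched in RefSeq for 44 of the 61 genes, and were read for CCAAT, the pentamer bound by NF-Y, on either strand in the 250 bases before the start. It stood in 30.6% of their 49 promoters and in 33.8% of all 32851 promoters. TATAAA stood in 10.2% and 12.4%. Neither share was above that of promoters at large. The windows below hold the pentamer in genes that the results turn on: both type IV chains and Nid1, Lamb1 and Col18a1, and the fibrillar chain Col1a2. Each is written 5′ to 3′ on the gene's strand, and capitals mark CCAAT or its reverse complement ATTGG.
Col4a1 (chr8:11312954-11312983, minus strand): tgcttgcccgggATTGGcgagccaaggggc
Col4a2 (chr8:11312761-11312790, plus strand): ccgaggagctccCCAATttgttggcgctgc
Nid1 (chr13:13437499-13437528, plus strand): ctgctcgctgccATTGGtagacgggacagg
Lamb1 (chr12:31265094-31265123, plus strand): ggaactcaagtaCCAATgccctacagcttc
Col18a1 (chr10:77166723-77166752, minus strand): cgcgttggagacATTGGagagaggacgaga
Col1a2 (chr6:4505497-4505526, plus strand): aaaagaatggaaCCAATttaagaagccccg
Col3a1, the other fibrillar chain followed here, held TATAAA (in capitals) and no CCAAT in its 250 upstream bases. The 120 bases before its start lie at chr1:45311418-45311537 on the plus strand.
Col3a1: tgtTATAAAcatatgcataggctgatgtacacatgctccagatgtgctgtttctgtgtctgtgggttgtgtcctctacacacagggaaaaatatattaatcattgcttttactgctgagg
Col18a1 has 2 starts in RefSeq, 52825 bases apart, and the window shown lies at the upstream of them. The counts do not tell transcripts of the 2 starts apart.

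The matrices held 15912 and 15185 cells with 279525565 and 259059908 UMIs (unique molecular identifiers, 1 per captured molecule); here and below, paired values give the control library first and the tomatidine library second. After filtering, 15115 and 14502 cells were clustered without the matrix genes. Cells of the endothelial-like cluster numbered 293 and 408, of the mural-like cluster 38 and 40, and of the fibroblast-like cluster 285 and 527. Choroid plexus-like cells numbered 338 and 32, and several neuronal clusters were also unequal (Pou4f2-led, 200 and 681; Gata3-led, 178 and 520; Igfbpl1-led, 161 and 30; Adora2a-led, 84 and 2). The samples are labelled hippocampus. A cluster led by Fibcd1 and Spink8, genes of hippocampal field CA1, was present (615 and 543 cells), but a subcortical neuron-like class led by Gbx2, a gene of the thalamus, was too (280 and 232 cells). The libraries shared 292 cell barcodes. A level is a gene's UMIs in a class relative to all UMIs of that class and library, in CPM, the usual unit of counts scaled to depth. Probes differ in efficiency, so levels are compared for the same gene only. Intervals are 95% exact counting intervals of the 2 pools and cover neither mice nor libraries.

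The names of the vessel and meningeal clusters were borne out by their markers, with limits. In the endothelial-like cluster all 13 endothelial markers measured were present, at a summed 13432 and 14582 CPM, but all 13 mural markers were too, at 7384 and 9435 CPM, and raised markers of the 2 types were equal in number. The mural-like cluster had 32696 and 33582 CPM of mural markers and 1167 and 1501 CPM of endothelial markers, and the fibroblast-like cluster 30418 and 28746 CPM of fibroblast markers. Oligodendrocyte markers summed to 4129 and 3380 CPM in the endothelial-like, 8660 and 7697 CPM in the mural-like and 5627 and 4084 CPM in the fibroblast-like cluster. Astrocyte markers summed to 6867 and 4878, 1167 and 6071, and 4916 and 5587 CPM in the same order. Red cell markers were at 4266 and 2084 CPM in the endothelial-like cluster. In the mural-like cluster the pericyte marker Kcnj8 stood at 504 and 392 CPM and the smooth muscle gene Acta2 at 78.8 and 15.7 CPM. In the endothelial-like cluster Acta2 stood at 131 and 585 CPM. The endothelial-like cells were therefore also divided, after this was seen, into those with UMIs of under 3 mural markers (135 and 186 cells, median 3106 and 2780 UMIs) and of 3 or more (158 and 222 cells, median 11102 and 9769.5 UMIs). The second set was deeper, and depth by itself raises the number of markers found in a cell. Transcripts of 2 cells in 1 droplet, free RNA and cells that express both sets cannot be told apart here.

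The summed share of matrix transcripts was highest in fibroblast-like, mural-like and endothelial-like cells. The 61 genes together took 1.06% and 1.004% of all UMIs in fibroblast-like cells, 0.616% and 0.709% in mural-like cells and 0.563% and 0.589% in endothelial-like cells. They took 0.421% and 0.498% in choroid plexus-like, 0.390% and 0.404% in microglia-like and 0.315% and 0.321% in ependymal-like cells, and 0.0970% and 0.104% in oligodendrocyte-like cells. These sums add genes with different probes, and a few genes can dominate them. Sparc alone gave 7644 of 9257 and 6227 of 7659 of these UMIs in microglia-like cells. In control endothelial-like cells Sparc gave 5806 and Fn1 4547 of 19591. Of the 61, 59 had at least 20 UMIs in some class or cluster (all but Col10a1 and Col17a1) and 55 had at least 100. For 49 of these 55 the class or cluster with the highest level was the same in both libraries: fibroblast-like cells for 15, mural-like cells for 7 and endothelial-like cells for 4. Col10a1, of growth-plate cartilage, and Col17a1, of the skin's hemidesmosomes, are not known for expression in brain.

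**Figure D1:**
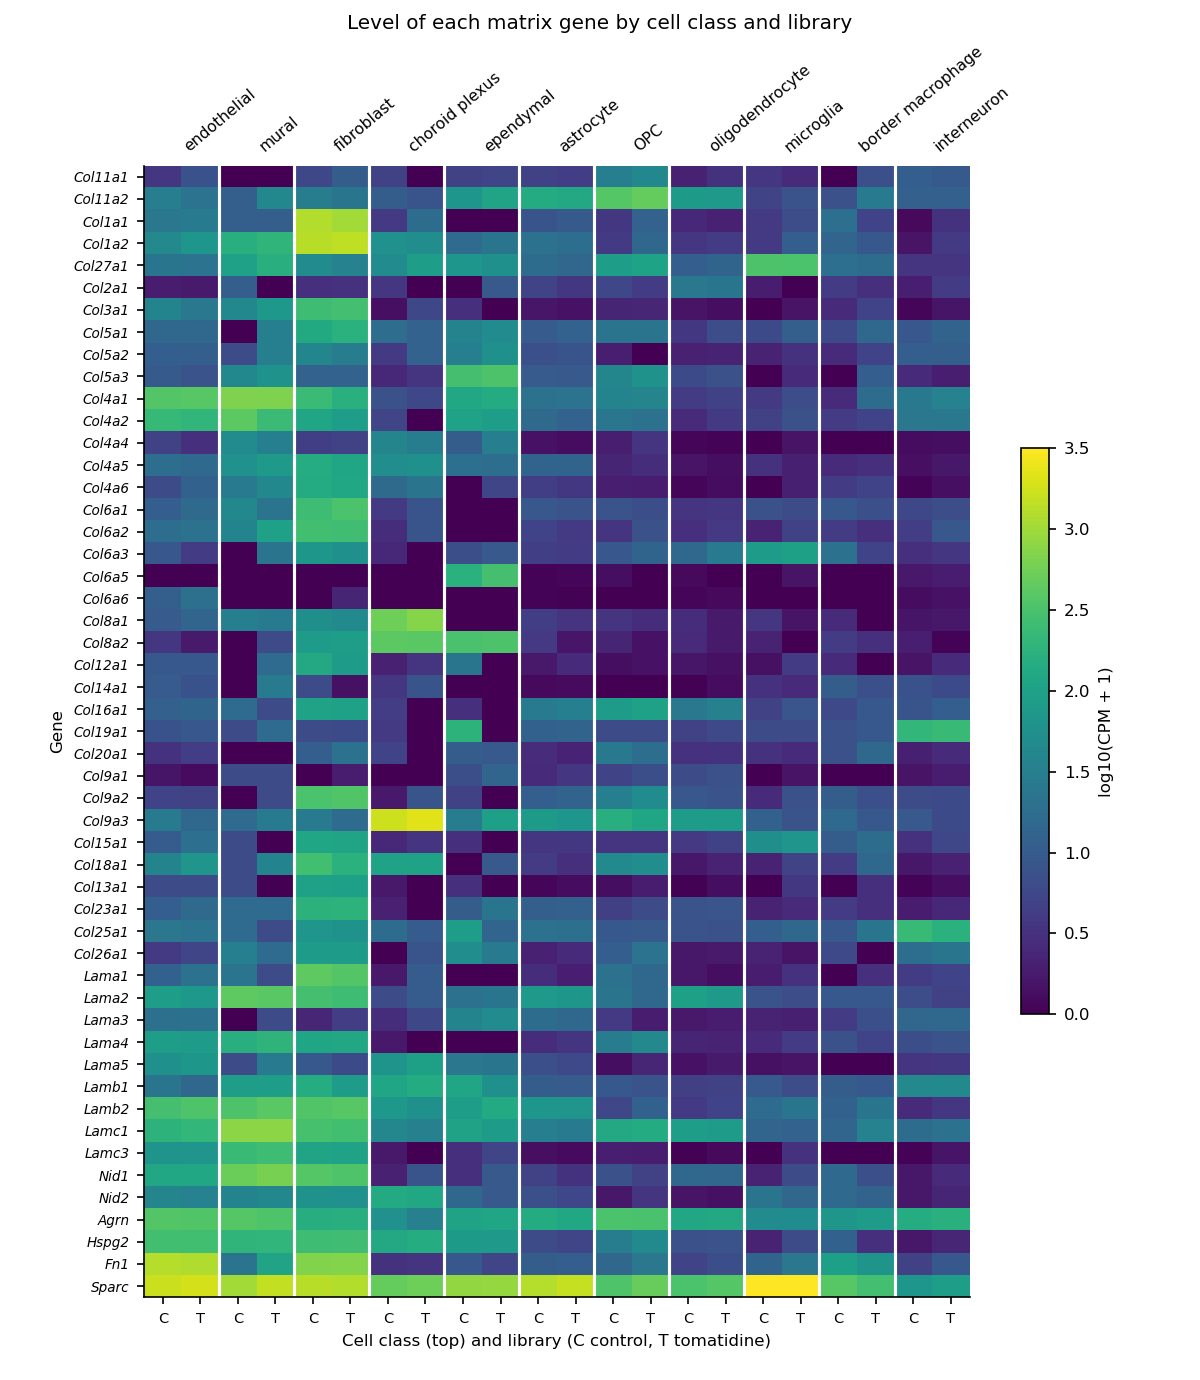
Level of 51 matrix genes (rows) in 11 cell classes (columns), as log10(CPM + 1), for the control (C) and tomatidine (T) libraries. Colours are read along a row, since probes differ between genes: Col1a1, Col1a2 and Lama1 are brightest in fibroblast-like cells, Col4a1, Lamc1 and Nid1 in mural-like cells, Fn1 in endothelial-like cells, Col9a3 in choroid plexus-like cells and Sparc in microglia-like cells.

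Fibroblast-like cells, of the meninges or perivascular space, were highest for the main fibrillar collagens. Col1a1 and Col1a2, the chains of type I collagen, stood at 1250.01 and 1035 CPM and 1325 and 1446 CPM there, and in endothelial-like cells at 23.6 and 26.6 CPM and 43.99 and 68.3 CPM. Col1a1 was thus 53.02 (42.5 to 66.99) and 38.96 (31.9 to 47.97)-fold higher in fibroblast-like cells. Col3a1, the chain of type III collagen, was at 258 and 288 CPM, or 6.96 (5.69 to 8.57) and 11.8 (9.46 to 14.7)-fold over endothelial-like cells. Type VI collagen forms beaded filaments near basement membranes, and its chains Col6a1 (262 and 322 CPM) and Col6a2 (277 and 264 CPM) were also highest there. So were the network chains Col4a5 (146 and 115 CPM) and Col4a6 (140.4 and 124 CPM), the cartilage chain Col9a2 (325 and 355 CPM), Col12a1 (130.1 and 81.7 CPM), the transmembrane collagens Col13a1 and Col23a1 (175 and 182 CPM), Col26a1 (81.5 and 83.4 CPM), and the multiplexin collagens Col15a1 (112 and 109.6 CPM) and Col18a1 (278 and 171 CPM). Lama1, a laminin chain of the pial basement membrane, was at 421 and 364 CPM there, and next highest in OPC-like cells of the control library (20.1 CPM) and endothelial-like cells of the tomatidine library (20.1 CPM), among classes with 20 or more UMIs of it. Col1a1 was nearly absent from the mural-like cells, with 2 and 2 UMIs, while Col1a2 was present there at 158 and 193 CPM. Of 47 genes compared, 33 were higher in fibroblast-like than in endothelial-like cells and 7 lower, with intervals clear of 1 in both libraries. No such count was made over all genes, so whether this share is particular to matrix genes is not known. 

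Mural-like cells were highest for the major type IV chains, Lamc1, Nid1, Lama2 and Lama4. Col4a1 was at 662 and 669 CPM in them and 367 and 390.3 CPM in endothelial-like cells, a ratio of 1.80 (1.49 to 2.17) and 1.72 (1.42 to 2.06). Lamc1, the gamma chain of most laminins, was at 778 and 779 CPM against 180.3 and 207 CPM, 4.31 (3.58 to 5.17) and 3.76 (3.13 to 4.48)-fold. Nid1, which bridges laminin and type IV collagen, was at 515 and 612 CPM against 124 and 124 CPM, 4.14 (3.29 to 5.16) and 4.92 (3.99 to 6.04)-fold. Lama2, known from muscle and the vessel wall, was at 431 and 403 CPM against 90.6 and 73.2 CPM, Lama4, of endothelial and muscle laminins, at 158 and 188 CPM against 87.4 and 82.1 CPM, and Lamc3 at 226 and 256 CPM against 63.5 and 65.4 CPM. The anchoring-fibril collagen Col7a1 was also highest in mural-like cells (52.5 and 57.5 CPM), from only 10 and 11 UMIs. Col4a2 was highest there in both libraries as well, at 415 and 241 CPM, with a ratio to endothelial-like cells of 1.90 (1.49 to 2.39) and 1.21 (0.876 to 1.63). These levels rest on 38 and 40 cells. Against fibroblast-like cells, Col4a1 in mural-like cells was 2.72 (2.20 to 3.35) and 4.06 (3.29 to 4.96)-fold higher and Col1a1 0.00841 and 0.0101 times the level. With intervals clear of 1 in both libraries, 14 of 36 genes were higher in mural-like than in endothelial-like cells and 3 were lower (Lama5, Fn1 and Sparc). Here too the count was made for the matrix genes alone.

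Of these 3 classes, endothelial-like cells were highest for fibronectin and Lama5. Fn1 was at 1307 and 1225 CPM in them, 693 and 699.6 CPM in fibroblast-like cells, 21.02 and 109.8 CPM in mural-like cells and 9.67 and 10.1 CPM in astrocyte-like cells. Hspg2 was at 277 and 274 CPM, close to the 254 and 265 CPM of fibroblast-like cells, where the ratio of fibroblast-like to endothelial-like cells was 0.916 (0.810 to 1.03) and 0.970 (0.877 to 1.07) and the intervals held 1. Lama5, of mature endothelial basement membrane, was at 55.5 and 71.1 CPM against 5.25 and 26.1 CPM in mural-like cells and 8.22 and 5.08 CPM in fibroblast-like cells. Col6a6 was found at 20 or more UMIs in this class alone (10.6 and 18.5 CPM), and Col14a1, a fibril-associated collagen, was highest here too, from 32 and 25 UMIs. Agrn was at 363 and 357 CPM in endothelial-like and 378 and 339.9 CPM in mural-like cells, a ratio of 1.04 (0.810 to 1.32) and 0.951 (0.730 to 1.22) whose intervals held 1.

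Endothelial-like cells with under 3 mural markers had lower levels of many matrix genes than those with more, among them genes highest in mural-like and genes highest in fibroblast-like cells. Nid1 was at 20.6 and 32.3 CPM in them and at 152 and 149.8 CPM in the cells with 3 or more mural markers, 7.37 (4.42 to 13.3) and 4.63 (3.14 to 7.11)-fold higher. Lama2 was at 21.99 and 20.4 CPM against 109 and 87.9 CPM, Lamc1 at 64.6 and 65.9 CPM against 211 and 247 CPM, and Lamc3 at 12.4 and 9.58 CPM against 77.1 and 80.9 CPM. Fn1 (1214 and 1061 CPM), Agrn (335 and 353 CPM), Lama5 (60.5 and 65.9 CPM) and Hspg2 (263 and 216 CPM) stayed within 1.5-fold of the other set. Col4a1, at 272 and 302 CPM, was 1.44 (1.24 to 1.69) and 1.37 (1.20 to 1.58)-fold higher in the other set. The fibrillar Col3a1 and Col1a2, highest in fibroblast-like cells, were 16.8 (4.55 to 140.2) and 8.43 (2.79 to 41.6)-fold and 7.83 (3.28 to 24.5) and 17.9 (6.92 to 66.3)-fold higher there. Of 36 genes compared, 16 were higher in the cells with 3 or more mural markers with intervals clear of 1 in both libraries, and 0 were lower. The same comparison was not made over all genes. The mural markers that divide the sets are none of the 61 genes, but Vtn among them is also in the list of other matrix proteins below. The division follows depth as well, as given above.

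**Figure D2:**
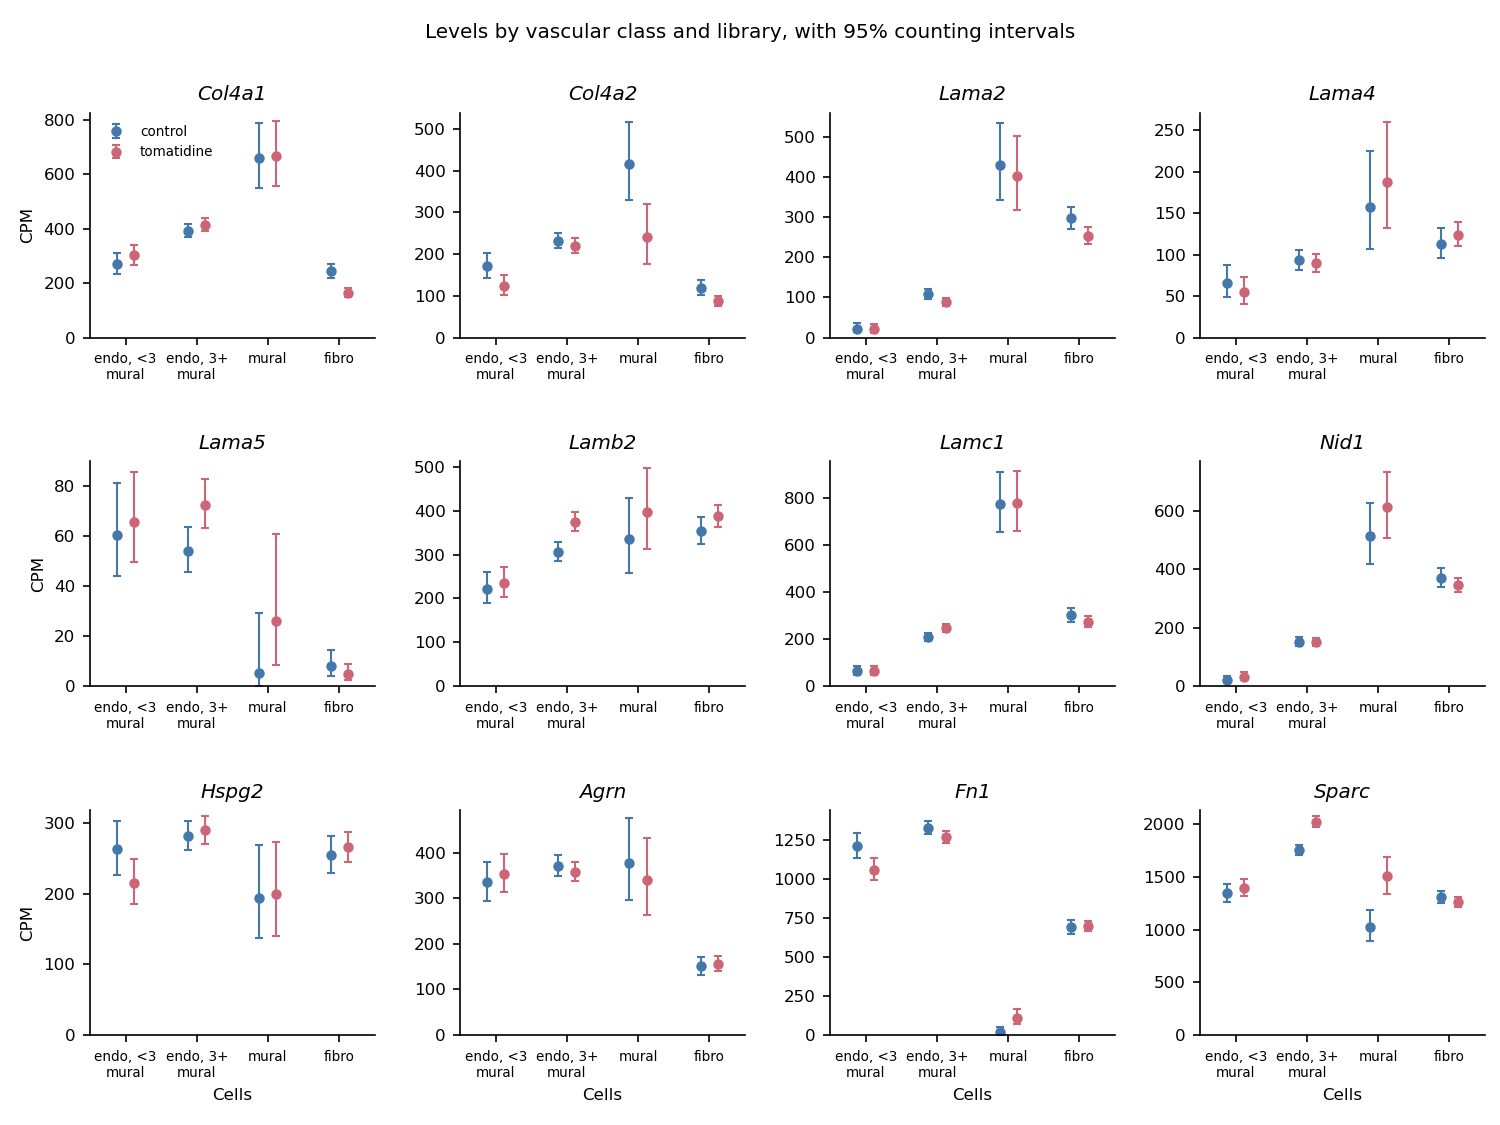
Level (CPM, linear axes that start at 0) of 12 basement membrane genes in endothelial-like cells with under 3 and with 3 or more mural markers, in mural-like and in fibroblast-like cells; points are the control (blue) and tomatidine (red) libraries and bars are 95% counting intervals. Col4a1, Lama2, Lamc1 and Nid1 climb from the first set to mural-like cells, while Lama5 and Fn1 drop.

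The laminin chains differed by class. Each share below is of the UMIs of all alpha chains; since probes differ, a share is read against the same chain's share in other classes and not as a ratio of molecules. Lama2 made up 70.1% (60.9 to 78.2, 82 of 117 UMIs) and 64.2% (54.9 to 72.7, 77 of 120 UMIs) of alpha chain UMIs in mural-like cells, and Lama4 25.6% and 30%. In endothelial-like cells with under 3 mural markers Lama2 made up 13.01% (7.62 to 20.3, 16 of 123 UMIs) and 11.5% (6.84 to 17.8, 17 of 148 UMIs), Lama4 39.02% and 31.1% and Lama5 35.8% and 37.2%. The intervals of the Lama2 share in mural-like cells and in this set lay far apart in both libraries, but the set was chosen for few mural markers. Over all endothelial-like cells the Lama2 share was 34.4% (31.3 to 37.6) and 27.5% (24.8 to 30.4), still below that of mural-like cells. In fibroblast-like cells Lama1 made up 50.1% and 48.5% and Lama2 35.3% and 33.9%. The Lama5 share was 87.6% and 80.4% in choroid plexus-like cells, and the Lama2 share 96.8% and 95.9% in oligodendrocyte-like cells. In astrocyte-like cells Lama2 was 74.6% and 76.1% and Lama3 15.96% and 14.9%.

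Among beta chains, the share of Lamb2, of mature vessels, was higher in the vessel classes than in choroid plexus-like and interneuron-like cells, and that of Lamb1, of embryonic and epithelial laminins, was lower. Lamb2 made up 92.8% and 96.01% of beta chain UMIs in endothelial-like cells and 79.01% and 81.7% in mural-like cells. Lamb1 made up 61.03% and 71.4% in choroid plexus-like cells and 92.2% and 92.1% in interneuron-like cells. In fibroblast-like cells the Lamb1 share was 29.3% (25.98 to 32.7, 215 of 735 UMIs) in the control library and 17.8% (15.6 to 20.1, 200 of 1125 UMIs) in the tomatidine library, and these intervals do not overlap. Lamb3, of epithelial laminin, had no class with 100 UMIs. Lamc1 held 73.5% and 75.1% of gamma chain UMIs in endothelial-like cells and 77.1% and 75.3% in mural-like cells, and Lamc3 nearly all of the rest; in oligodendrocyte-like cells Lamc1 held 99.1% and 97.7%.

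Choroid plexus-like cells, the epithelium that secretes cerebrospinal fluid, were highest for another set of matrix genes. Col9a3 was at 1717 and 2172 CPM, Col8a1 at 536 and 725 CPM and Col8a2, its partner in type VIII collagen, at 414 and 395 CPM. In fibroblast-like cells Col9a3 was at 26.03 and 15.7 CPM and Col8a1 at 54.8 and 46.1 CPM. Lama5 (62.8 and 96.5 CPM), Nid2 (139 and 119.99 CPM) and the type IV chain Col4a4 (38.3 and 28.2 CPM) were also highest in this epithelium, while Col4a1 was at 6.32 and 4.71 CPM (17 and 2 UMIs). Not all of these genes were particular to it. Col8a2 was at 313 and 333 CPM in ependymal-like cells, and Lama5 at 55.5 and 71.1 CPM in endothelial-like cells. The second values of choroid plexus-like cells rest on 32 cells. Ependymal-like cells, of which there were 27 and 12, were highest for Col5a3 (293 and 333 CPM), Col6a5 (171 and 289 CPM) and Lama3 (37.4 and 47.5 CPM).

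Some members were highest in neurons or glia. Sparc and the fibrillar Col27a1 were highest in microglia-like cells, at 3222 and 3284 CPM and 327 and 322 CPM. Oligodendrocyte precursor-like cells (OPC) were highest for Col11a2, at 379 and 465 CPM, and oligodendrocyte-like cells for Col2a1 (23.9 and 21.8 CPM) and Col9a1 (5.27 and 6.40 CPM). Col19a1, a collagen known from interneurons, was highest in interneuron-like cells at 205 and 236 CPM. In unnamed clusters, Col6a3 (376 and 686 CPM), Col6a4 (17.6 and 17.3 CPM) and Col25a1, a transmembrane collagen of neurons (384 and 390.2 CPM), were highest in the Igfbpl1-led cluster. Col5a1 (174 and 259 CPM) and Col24a1 (10.1 and 9.46 CPM) were highest in a cluster led by Nxph3 and Ccn2, Col22a1 (13.7 and 13.4 CPM) in one led by Mylk3 and Col16a1 (127 and 101 CPM) in one led by Gpr151. For Agrn, Lamb1, Lamb2, Col5a2, Col11a1 and Col20a1 the highest class differed between the libraries. For Agrn and Col11a1 the tomatidine value came from the Adora2a-led cluster with its 2 cells. Lamb2, for one, was at 353 and 388 CPM in fibroblast-like and 336 and 397 CPM in mural-like cells.

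Turning to tomatidine against control, the core of the basement membrane was at much the same level in endothelial-like cells. A ratio is given as log2 of tomatidine over control with its interval, so that 0 is no difference; differences of at least 1.5-fold in a gene with 100 or more UMIs in the class are singled out, which is a rule of size and not a test. The UMIs of Col4a1, Col4a2, the laminins, both nidogens and Hspg2 summed to 1846 and 1923 CPM (log2 ratio 0.059, 0.011 to 0.11). The sign of this small ratio depended on the choice of cells, from −0.13 in cells gated by markers to 0.20 with all deposited cells. Col4a1 was at 367 and 390.3 CPM (0.088, −0.021 to 0.20), Col4a2 at 219 and 199 CPM (−0.13, −0.28 to 0.012), Nid1 at 124 and 124 CPM (−0.0025, −0.19 to 0.19), Nid2 at 37.7 and 34.4 CPM (−0.13, −0.49 to 0.23), Hspg2 at 277 and 274 CPM (−0.020, −0.15 to 0.11) and Agrn at 363 and 357 CPM (−0.023, −0.13 to 0.089). All 6 intervals held 0. Fn1 was at 1307 and 1225 CPM (−0.094, −0.15 to −0.035) and Sparc at 1669 and 1888 CPM (0.18, 0.13 to 0.23), small differences in deeply counted genes, which changed sign for Fn1 with all deposited cells (0.066) and for Sparc under stricter cell limits (−0.028).

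The laminins summed to 819.97 and 901 CPM (0.14, 0.064 to 0.21). Among them Lamb2 (289 and 344 CPM; 0.25, 0.13 to 0.37), Lamc1 (180.3 and 207 CPM; 0.20, 0.049 to 0.36) and Lama5 (55.5 and 71.1 CPM; 0.36, 0.087 to 0.63) were higher in the tomatidine library by less than 1.5-fold, and Lama2 was lower (90.6 and 73.2 CPM; −0.31, −0.54 to −0.070). Lama4 (87.4 and 82.1 CPM; −0.091, −0.32 to 0.14), Lama3 (18.7 and 19.5 CPM; 0.064, −0.43 to 0.57) and Lamc3 (63.5 and 65.4 CPM; 0.041, −0.23 to 0.31) had intervals that held 0. The same was true of the collagens Col1a1 (0.17, −0.26 to 0.61), Col4a5 (−0.22, −0.77 to 0.33), Col5a1 (0.028, −0.56 to 0.62), Col6a2 (0.16, −0.35 to 0.68), Col25a1 (−0.20, −0.66 to 0.27) and Col27a1 (−0.086, −0.56 to 0.39). Several of these ratios depended on which cells were counted and how. Cells with 3 or more mural markers held 580 of 627 and 741 of 796 UMIs of Lamc1. Over the alternatives the ratio of Lamb2 ranged from 0.00087 to 0.40 and that of Lamc1 from 0.029 to 0.33. The ratio of Lama5 ranged from 0.12 to 0.52 and that of Lama2 from −1.015 to −0.043. Under stricter cell limits those of Col1a1, Col4a5, Col6a2 and Lama3 were −1.81, −0.94, −0.41 and 0.60. In cells gated by markers those of Col1a1 and Col27a1 were −0.79 and −0.63. In cells with under 3 mural markers those of Col25a1, Lama3 and Nid1 were 0.80, 1.003 and 0.65, and without cells holding other markers that of Nid1 was 0.66. As means over cells, those of Col1a1, Col4a5 and Col6a2 were −1.02, −1.28 and 1.41. Col11a2 was lower, at 30.5 and 20.8 CPM (−0.55, −0.99 to −0.12), but was higher under stricter cell limits (0.11), in cells gated by markers (0.29) and in cells with under 3 mural markers (0.54).

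Several collagens, both multiplexins among them, and the laminin chains Lama1 and Lamb1 were past 1.5-fold in endothelial-like cells. These laminin chains are also part of the core sum above. Col15a1 was at 9.49 and 17.98 CPM (33 and 69 UMIs; 0.92, 0.30 to 1.57), Lama1 at 11.2 and 20.1 CPM (0.84, 0.27 to 1.43), Col18a1, the source of endostatin, at 37.4 and 66.2 CPM (130 and 254 UMIs; 0.82, 0.51 to 1.14), Col6a6 at 10.6 and 18.5 CPM (0.80, 0.21 to 1.41) and Col1a2 at 43.99 and 68.3 CPM (0.63, 0.34 to 0.93). Col9a3 was lower, at 27.03 and 13.5 CPM (−0.996, −1.51 to −0.49), as were Lamb1 at 22.1 and 14.3 CPM (−0.63, −1.15 to −0.11) and Col3a1 at 37.1 and 24.5 CPM (−0.60, −0.998 to −0.20). In cells gated by markers Col1a2 and Col15a1 were lower instead (−0.23 and −0.070). These are the 5 genes past 1.5-fold higher and the 3 past 1.5-fold lower, of 30 with 100 or more UMIs. Over all genes with 100 or more UMIs in this class, 1.93% were past 1.5-fold higher and 1.78% past it lower. Of the 50 matrix genes with 20 or more UMIs, 27 stood higher with tomatidine and 23 lower. Their median log2 ratio was 0.046, beside 0.021 over all genes. The last gene inside that minimum was Col4a4 with 21 UMIs.

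**Figure D3:**
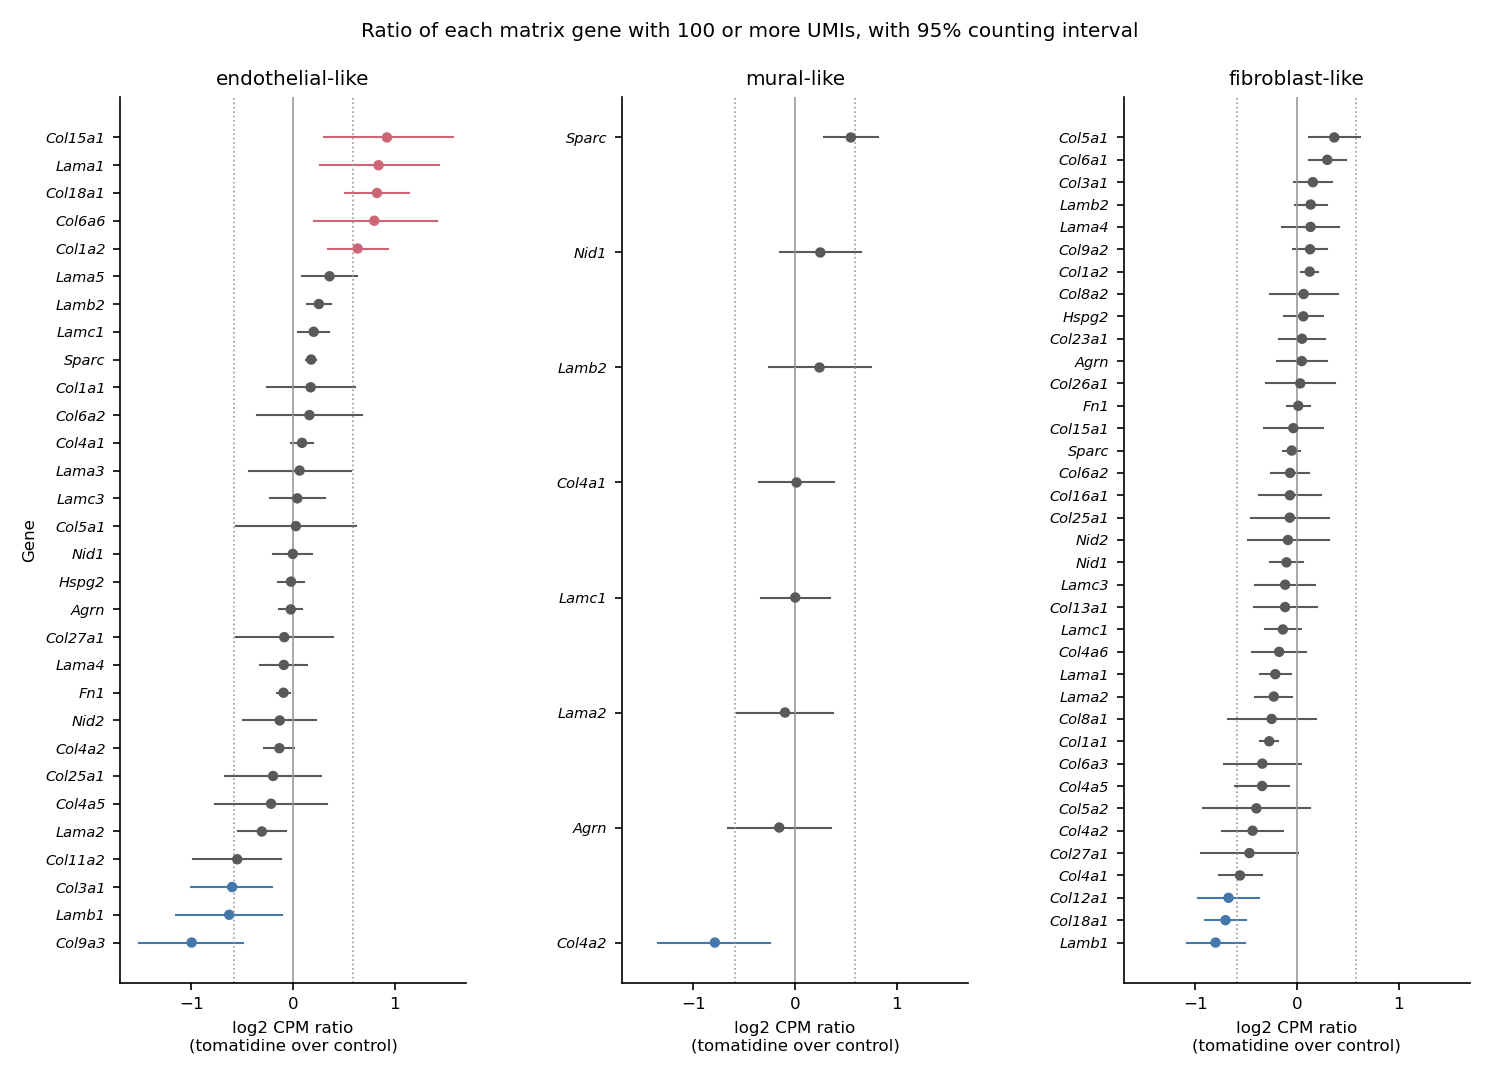
log2 ratio of CPM, tomatidine over control, with its 95% counting interval for each matrix gene with 100 or more UMIs in endothelial-like, mural-like and fibroblast-like cells. Dotted lines mark 1.5-fold; red points are past it higher (5 in endothelial-like cells) and blue points past it lower (3, 1 and 3 in the 3 classes).

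Markers of other cells also differed between the libraries in the endothelial-like cluster. The smooth muscle genes Acta2 (131 and 585 CPM) and Myh11 (184 and 472 CPM) were higher in the tomatidine library, and so were all 7 smooth muscle genes listed, from a summed 829.7 to 2378 CPM. The 13 mural markers went from 7384 to 9435 CPM and the 14 fibroblast markers from 2314 to 2744 CPM. Choroid plexus markers went the other way, from 2326 to 93.3 CPM over 12 markers, of which 2 were at 0 in the tomatidine library, with Ttr at 2238 and 64.6 CPM; Col9a3, lower here, was highest in that epithelium. The part of these cells in the ratios was not tested. Most UMIs of Col1a2, Col18a1 and Col15a1 came from cells with 3 or more mural markers: 148 of 153 and 258 of 262 for Col1a2, 121 of 130 and 234 of 254 for Col18a1, and 30 of 33 and 67 of 69 for Col15a1. In cells with under 3 mural markers Col18a1 had 9 and 20 UMIs (0.95, −0.25 to 2.27), and 0 of the 8 matrix genes with 100 UMIs were past 1.5-fold, where 7.8% of all genes were. In the cells without 3 or more markers of mural, fibroblast or choroid plexus cells (98 and 151 cells), 0 of 7 were, beside 9.81% of all genes.

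Single cells held much of some counts. In the control library 1 endothelial-like cell gave 77 of the 129 UMIs of Col3a1, and without the richest cell of each library the ratio turned to 0.42. It was −2.07 in cells gated by markers and −1.69 under stricter cell limits. The richest cell held 37 of 130 UMIs of Col18a1 in the control library and 21 of 69 of Col15a1 in the tomatidine library. Without it, the ratios were 1.06 and 1.05, and those of Col1a2, Lama1 and Col6a6 were 0.69, 0.76 and 1.56. Col6a6 differed in the cells with few mural markers, with 10 and 50 UMIs there (2.12, 1.13 to 3.27) and 27 and 21 UMIs in the rest (−0.49, −1.39 to 0.39). In the cells without markers of other classes it had 2 and 31 UMIs, and the venous genes of those cells were higher too. The 7 venous markers listed went from a summed 677 to 1618 CPM, and the 5 of them with 100 UMIs were all past 1.5-fold higher. The part of venous cells in the Col6a6 ratio was not tested.

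In mural-like cells Col4a2 was lower in the tomatidine library while Col4a1 stood at a like level. Col4a2 was at 415 and 241 CPM (79 and 46 UMIs; −0.79, −1.34 to −0.24) and Col4a1 at 662 and 669 CPM (126 and 128 UMIs; 0.016, −0.35 to 0.38). Col4a2 was the 1 of 8 genes with 100 or more UMIs past 1.5-fold; over all genes 5.27% were past it lower and 7.56% higher. Both directions together, this is a like share to that among all genes. The richest cell held 17 of the 79 control UMIs of Col4a2, and among cells gated by mural markers Col4a2 was higher instead (0.60). The Col4a1 ratio was 0.51 in the gated cells and −1.10 in the 5 and 12 cells without other markers. Lamc1 was at 778 and 779 CPM (0.0026, −0.34 to 0.34), Nid1 at 515 and 612 CPM (0.25, −0.15 to 0.65), Lama2 at 431 and 403 CPM (−0.10, −0.57 to 0.37), Lamb2 at 336 and 397 CPM (0.24, −0.26 to 0.74) and Agrn at 378 and 339.9 CPM (−0.15, −0.66 to 0.35), and all of these intervals held 0. Sparc was at 1029.97 and 1506 CPM (0.55, 0.28 to 0.82), just inside 1.5-fold. Of 20 genes with 20 or more UMIs (the last inside being Col5a3 with 20 UMIs and the first outside Col4a3 with 19), 16 were higher, with a median of 0.24 beside −0.049 over all genes. The largest, Fn1, rested on 4 and 21 UMIs, and Col6a2 on 7 and 19 UMIs. Astrocyte markers in these cells went from 1167 to 6071 CPM and endothelial markers from 1167 to 1501 CPM; their part in the ratios was not tested. The core sum was 3873 and 3911 CPM (0.014, −0.13 to 0.16).

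In fibroblast-like cells Lamb1, Col18a1 and Col12a1 were past 1.5-fold lower in the tomatidine library, Col4a1 and Col4a2 were lower by less, and the main fibrillar chains differed little. Lamb1 was at 147 and 84.6 CPM (215 and 200 UMIs; −0.80, −1.08 to −0.51), Col18a1 at 278 and 171 CPM (406 and 404 UMIs; −0.70, −0.90 to −0.50) and Col12a1, a fibril-associated collagen, at 130.1 and 81.7 CPM (−0.67, −0.97 to −0.38). These 3 of 37 genes were past 1.5-fold lower and 0 past it higher, beside 2.69% and 1.99% of all genes. Col4a1 (243 and 165 CPM; −0.56, −0.77 to −0.35) and Col4a2 (118 and 87.6 CPM; −0.44, −0.73 to −0.14) were lower by under 1.5-fold. Col1a1 was lower (−0.27, −0.36 to −0.18) and Col1a2 higher (0.13, 0.045 to 0.21), so the 2 chains of type I collagen went opposite ways. Col3a1 was at 258 and 288 CPM (0.16, −0.027 to 0.34), and Col5a1 (0.37, 0.12 to 0.62) and Col6a1 (0.30, 0.12 to 0.48) were higher.

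The remaining laminins and linkers of fibroblast-like cells were within 1.5-fold. Lama1 (−0.21, −0.36 to −0.061) and Lama2 (−0.23, −0.41 to −0.046) were lower, and Lama4 (0.13, −0.15 to 0.42), Lamb2 (0.14, −0.022 to 0.29), Lamc1 (−0.14, −0.31 to 0.039), Lamc3 (−0.12, −0.41 to 0.18), Nid1 (−0.10, −0.26 to 0.057), Nid2 (−0.088, −0.48 to 0.31), Hspg2 (0.063, −0.13 to 0.25), Agrn (0.048, −0.20 to 0.30) and Sparc (−0.051, −0.13 to 0.032) had intervals that held 0. Fn1 stood at 693 and 699.6 CPM (0.013, −0.10 to 0.13), but 1 control cell held 363 of its 1012 UMIs, and without the richest cells the ratio was 0.57. Of the other collagens with 100 UMIs, Col4a5 was lower (−0.34, −0.61 to −0.076), and Col4a6, Col5a2, Col6a2, Col6a3, Col8a1, Col8a2, Col9a2, Col13a1, Col15a1, Col16a1, Col23a1, Col25a1, Col26a1 and Col27a1 had intervals that held 0, with ratios from −0.47 for Col27a1 to 0.13 for Col9a2. Of 47 genes with 20 or more UMIs (the last inside was Col19a1 with 20 UMIs, the first outside Col4a4 with 14), 17 stood higher with tomatidine and 30 lower. Their median was −0.088, beside −0.042 over all genes.

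The lower levels in fibroblast-like cells depended in part on which cells were counted. The core sum was 2825 and 2549.5 CPM (−0.15, −0.21 to −0.091). In the 185 and 379 cells without 3 or more markers of endothelial, mural or choroid plexus cells it was 2380.2 and 2603 CPM (0.13, 0.042 to 0.22), the opposite sign. There Col4a1 was at 168 and 173 CPM (0.044, −0.29 to 0.39), Col4a2 at 79.5 and 82.9 CPM (0.061, −0.43 to 0.57), Lamb1 at 98.99 and 79.6 CPM (−0.31, −0.78 to 0.16), Col18a1 at 198 and 141 CPM (−0.49, −0.82 to −0.15) and Col12a1 at 126 and 87.8 CPM (−0.52, −0.95 to −0.091). Lama1 was higher there (0.15, −0.071 to 0.38), and 0 of 35 genes were past 1.5-fold, beside 8.33% of all genes. The lower levels of Col18a1 and Col12a1 thus kept intervals below 0 in those cells, and those of Col4a1, Col4a2 and Lamb1 did not. Across all fibroblast-like cells, mural markers went from 3862 to 5534 CPM, the pericyte gene Atp13a5 from 43.8 to 154 CPM and choroid plexus markers from 2308 to 374 CPM. The mural sum includes Vtn, whose ratio in these cells is given below. Of the other mural markers, Kcnj8 stood at 0 and 1.27 CPM and Acta2 at 4.11 and 11.9 CPM. In the 185 and 379 cells above, mural markers still summed to 2664 and 5053 CPM. The part of mural and choroid plexus cells in the ratios was not tested.

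The balance of the 2 type IV chains leaned toward Col4a1 in the tomatidine library in 14 of 17 classes and clusters. The intervals of the 2 libraries were apart in only 5, none of them a vessel or meningeal class. Among UMIs of Col4a1 and Col4a2 together, Col4a1 made up 62.7% (60.5 to 64.8) and 66.2% (64.2 to 68.1) in endothelial-like cells. In mural-like cells it made up 61.5% (54.4 to 68.2) and 73.6% (66.4 to 79.9), and in fibroblast-like cells 67.2% (63.05 to 71.2) and 65.3% (61.4 to 69.1). Of 17 classes and clusters with 100 or more such UMIs in each library, the share was higher in the tomatidine library in 14 and lower in 3. The 2 intervals did not overlap in 5, all of them neuronal or unnamed and all higher: the clusters led by Mylk3, Tdo2, Fibcd1 and Nxph3, and interneuron-like cells, at 51.1% (47.2 to 55.003) and 58.9% (55.2 to 62.5). In the Fibcd1-led cluster Col4a1 itself was at 48.5 and 87.7 CPM and Col4a2 at 36.3 and 46.9 CPM. In endothelial-like cells with under 3 mural markers the share was 61.5% (55.9 to 66.8) and 70.8% (65.8 to 75.5). Over the 17 it ranged from 41.99% to 67.2% and from 48.5% to 73.6%. These classes come from the same 2 libraries and are not replicates of each other. No other pair of genes was compared in this way.

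**Figure D4:**
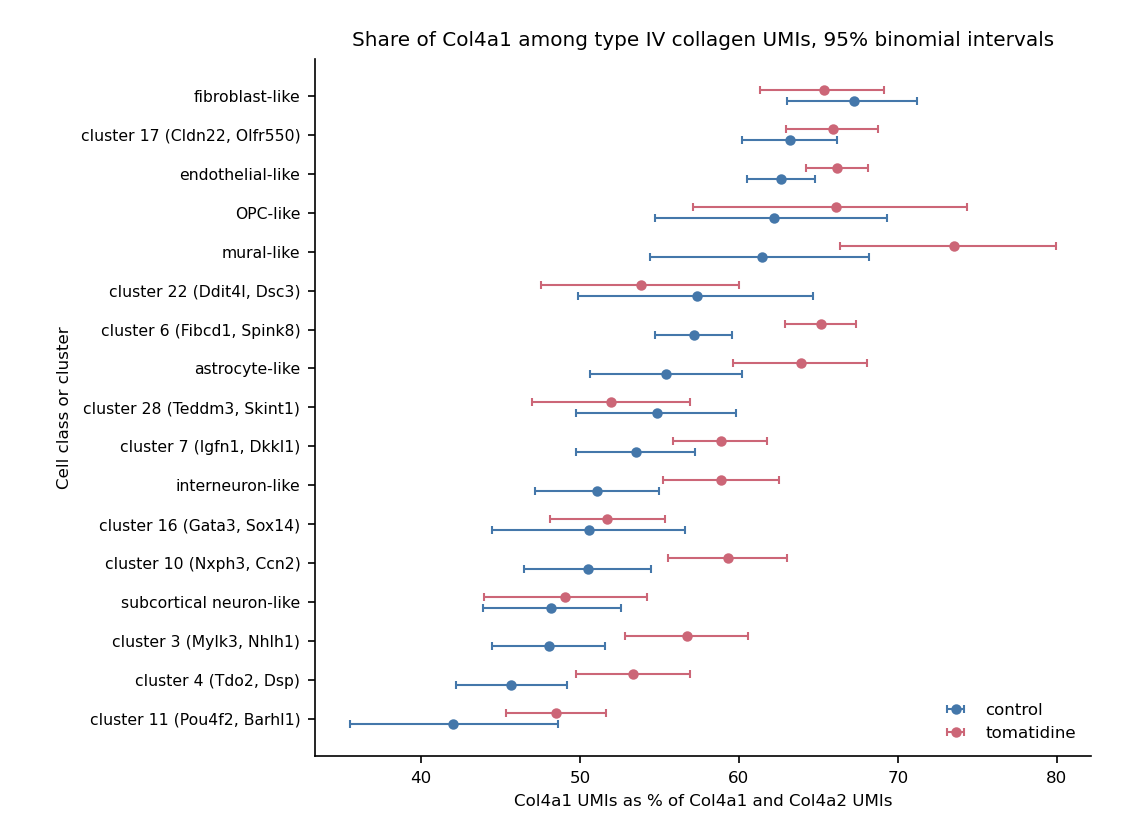
Share of Col4a1 among the UMIs of Col4a1 and Col4a2 (percent, axis not from 0) in the 17 classes and clusters with 100 or more such UMIs per library, with 95% binomial intervals, for the control (blue) and tomatidine (red) libraries. The red point lies to the right of the blue one in 14 of 17 rows.

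Sparc was higher in the tomatidine library in most cell classes. Of 29 classes and clusters with 20 or more cells per library, it was higher in 25 and lower in 4, with an interval above 0 in 22 and below 0 in 3 and a median log2 ratio of 0.45. In microglia-like cells, where it was highest, it was at 3222 and 3284 CPM (0.028, −0.021 to 0.076), in astrocyte-like cells at 1275 and 1561 CPM (0.29, 0.26 to 0.32), and in oligodendrocyte-like cells at 325 and 371 CPM (0.19, 0.14 to 0.25). The Nxph3-led cluster was at 34.9 and 79.8 CPM (1.19, 1.04 to 1.34). Border macrophage-like cells (389.6 and 279 CPM; −0.48, −0.79 to −0.17) and a cluster led by Enpp6 and Slc45a3 (199 and 74.7 CPM; −1.41, −1.83 to −1.01) were lower. Over all cells Sparc was at 278 and 355 CPM. Summed astrocyte markers were also higher in 21 of the 29, microglia markers in 15 and endothelial markers in 17, but choroid plexus markers in only 2. The 29 classes and clusters come from the same 2 libraries and are not replicates of each other. How many of all genes were higher in as many of them was not counted. The part of free RNA from cells rich in Sparc was not tested.

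**Figure D5:**
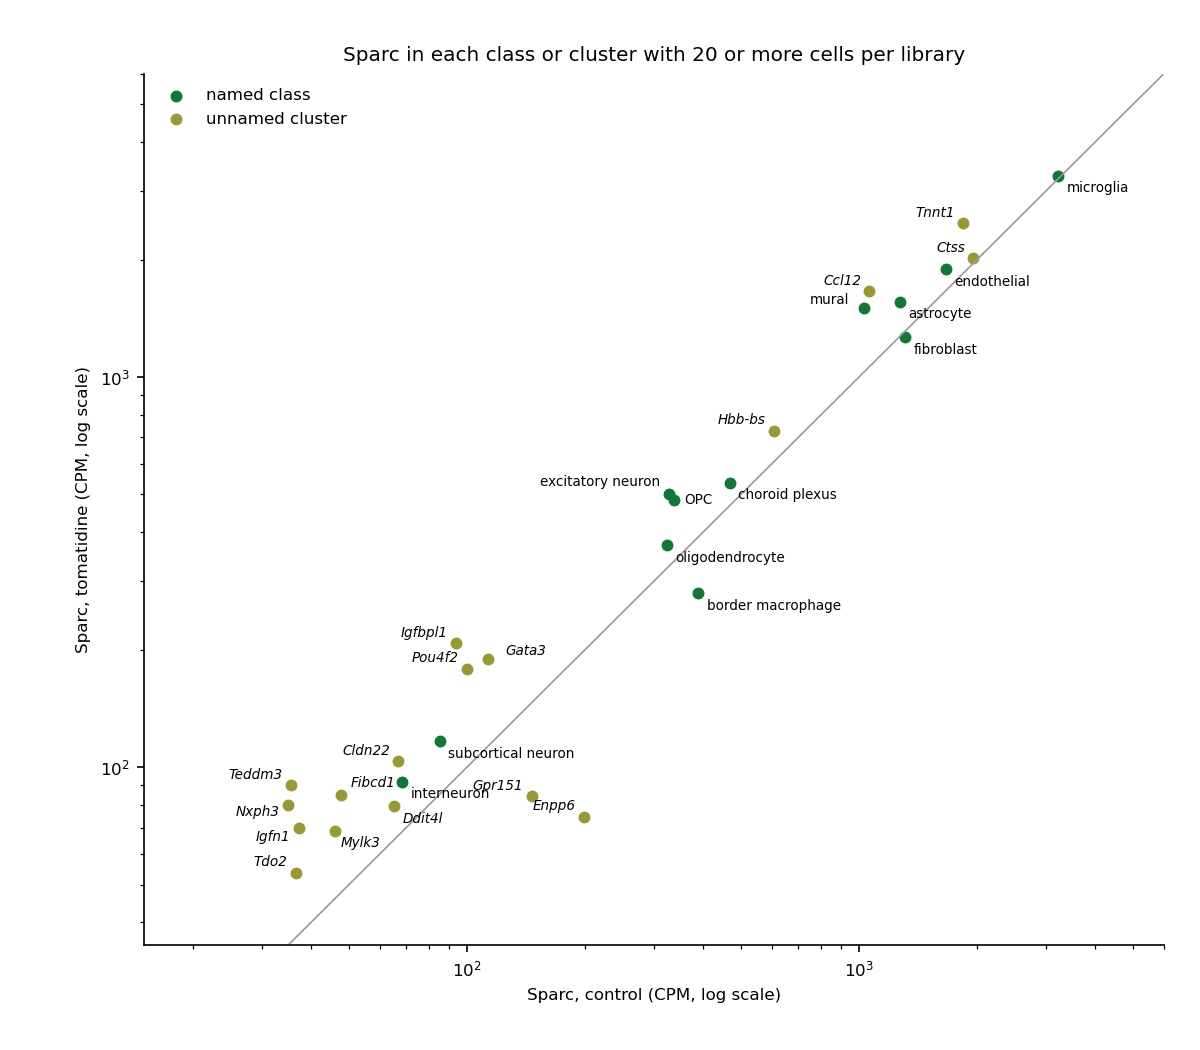
Sparc (CPM, both axes logarithmic) in the control library against the tomatidine library for the 29 classes and clusters with 20 or more cells per library; green points are named classes, olive points unnamed clusters labelled by their leading gene, and the line marks equal levels. 25 points lie above the line and 4 below it.

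In each of the other named classes 0 to 5 matrix genes passed 1.5-fold. In OPC-like cells Col5a3 (38.9 and 61.3 CPM), Col9a2 (31.3 and 48.7 CPM) and Hspg2 (28.04 and 45.5 CPM) were past 1.5-fold higher, 3 of 17 genes with 100 UMIs, beside 3.72% of all genes. In oligodendrocyte-like cells Col5a1 (2.64 and 5.75 CPM) and Col6a3 (14.2 and 26.7 CPM) were higher, 2 of 24, beside 2.15%. Astrocyte-like cells had 0 of 30 (2.57%), microglia-like cells 0 of 5 (2.48%) and border macrophage-like cells 0 of 1 (12.5%). In interneuron-like cells Col5a1 (7.86 and 11.9 CPM), Col6a2 (3.29 and 7.90 CPM) and Fn1 (3.74 and 8.31 CPM) were higher and Col9a3 (8.38 and 5.10 CPM) and Lama2 (5.61 and 3.70 CPM) lower, 5 of 23, beside 1.9%; all 5 were low genes there. In the subcortical neuron-like class Col11a2 (4.01 and 8.72 CPM) and Col16a1 (13.2 and 21.5 CPM) were higher and Col27a1 (33.3 and 14.4 CPM) lower, 3 of 16, beside 4.28%. Sparc (327 and 502 CPM) was the 1 of 5 in excitatory neuron-like cells (2.98%).

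In choroid plexus-like cells Col27a1 (47.2 and 91.8 CPM) and Lama5 (62.8 and 96.5 CPM; 0.62, 0.090 to 1.12) were higher and Agrn (57.6 and 32.9 CPM; 155 and 14 UMIs) was lower, 3 of 16, beside 14.3% of all genes, which is a like share. The abundant collagens of this epithelium were within 1.5-fold: Col9a3 (0.34, 0.24 to 0.44), Col8a1 (0.44, 0.25 to 0.61) and Col8a2 (−0.068, −0.31 to 0.17). In ependymal-like cells Col6a5 (171 and 289 CPM) was the 1 of 4 (19.2%). The shares of all genes are largest in these 2 classes, which had 32 and 12 cells in the tomatidine library. Of the 18 unnamed clusters, 6 had 4 or more matrix genes past 1.5-fold. They are listed because of that number, so their shares do not speak for the unnamed clusters at large. The others had 0 to 3, such as 0 of 17 in the Ddit4l-led, 1 of 21 in the Nxph3-led and 3 of 13 in the Cldn22-led cluster. No share over all genes was taken for those others. In the Pou4f2-led cluster 6 were higher and 6 lower of 26 with 100 UMIs, beside 5.18% of all genes. In the Fibcd1-led cluster 6 were higher and 0 lower of 17 with 100 UMIs, beside 4.55% of all genes. In the Igfn1-led cluster 3 were higher and 2 lower of 27 with 100 UMIs, beside 2.32% of all genes. In the Gata3-led cluster 5 were higher and 0 lower of 20 with 100 UMIs, beside 3.87% of all genes. In the Teddm3-led cluster 4 were higher and 0 lower of 9 with 100 UMIs, beside 2.19% of all genes. In the Igfbpl1-led cluster 3 were higher and 1 lower of 10 with 100 UMIs, beside 14% of all genes.

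Genes that make, bind or accompany the matrix were followed as 3 lists. Of the enzymes and chaperones of collagen (26 of 27 in the files), 0 of the 18 with 100 UMIs were past 1.5-fold in endothelial-like cells, beside 1.93% past it higher and 1.78% lower over all genes. The ends were the prolyl hydroxylase P4ha1 (−0.28, −0.53 to −0.027) and the procollagen protease Bmp1 (−0.27, −0.65 to 0.10) below, and P3h1 (0.28, −0.19 to 0.75) and P4ha2 (0.31, −0.021 to 0.65) above. In mural-like cells 1 of 2 was past it: the collagen chaperone Serpinh1, at 515 and 329 CPM (−0.64, −1.12 to −0.17), with Ppib at 0.11, −0.42 to 0.65. Over all genes in mural-like cells the shares were 7.56% past it higher and 5.27% lower. In fibroblast-like cells 1 of 21 was: the crosslinking enzyme Lox, at 89.7 and 34.7 CPM (−1.37, −1.79 to −0.96), beside 1.99% past it higher and 2.69% lower over all genes. The next lowest there was Pxdn, which crosslinks type IV collagen (−0.48, −0.96 to −0.0014), and the highest were Loxl3 (0.37, −0.25 to 1.01) and Bmp1 (0.44, 0.11 to 0.77).

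Of 23 matrix receptors, 0 of 19 with 100 UMIs in endothelial-like cells and 0 of 6 in mural-like cells were past 1.5-fold, beside 1.93% past it higher and 1.78% lower over all genes of the former and 7.56% past it higher and 5.27% lower over those of the latter. The ends were the integrin chains Itgb3 (−0.54, −1.14 to 0.050) and Itgb8 (−0.49, −0.74 to −0.25) below and Itga5 (0.36, −0.075 to 0.80) and Itgb4 (0.56, 0.082 to 1.04) above in the former, and the laminin receptor Bcam (−0.51, −0.999 to −0.038) and Itgb5 (−0.17, −0.67 to 0.32) below and Itga1 (0.10, −0.28 to 0.49) and Itgb1 (0.11, −0.31 to 0.53) above in the latter. In fibroblast-like cells 2 of 18 were past it lower: Itga8, at 133 and 27.9 CPM (−2.25, −2.68 to −1.84), and Itgb4, at 66.4 and 42.3 CPM (−0.65, −1.07 to −0.23), beside 1.99% past it higher and 2.69% lower over all genes. The highest were Itga10 (0.32, −0.16 to 0.82) and the collagen receptor chain Itga1 (0.56, 0.14 to 1.002).

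The third list held other matrix proteins. In endothelial-like cells 6 of 27 with 100 UMIs were past 1.5-fold, all higher: the elastic fibre genes Fbln5 (16.7 and 43.8 CPM; 1.39, 0.95 to 1.85), Eln (59.5 and 125 CPM; 1.07, 0.83 to 1.31) and Ltbp1 (21.6 and 35.2 CPM), and Mgp (282 and 479.6 CPM; 0.76, 0.65 to 0.88), Fmod (19.3 and 32.6 CPM) and Tnxb (23.3 and 38.8 CPM). Over all genes of this class the shares were 1.93% past it higher and 1.78% lower. Elastin is made by smooth muscle and arterial endothelium, and the smooth muscle genes of these cells were higher too, as given above. The arterial endothelial genes Gkn3 (54.6 and 125 CPM) and Bmx (20.4 and 35.4 CPM) were past 1.5-fold higher, 2 of 7, the venous gene Icam1 (56.1 and 119.8 CPM) 1 of 7, and 0 of 6 capillary and 0 of 6 pericyte genes; the part of vessel type in these ratios was not tested. Mgp and Fmod are also among the 14 fibroblast markers, whose sum in endothelial-like cells was 2314 and 2744 CPM. The part of fibroblasts in their ratios was not tested. The lowest of the list were Npnt (−0.28, −0.75 to 0.18) and Ecm1 (−0.11, −0.38 to 0.16).

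In mural-like cells 1 of 8 was past 1.5-fold: Ecm2, at 405 and 267 CPM (−0.60, −1.14 to −0.072), where the shares over all genes were 7.56% past it higher and 5.27% lower. It was followed by Ltbp4 (−0.35, −0.85 to 0.14), with Sparcl1 (0.26, 0.087 to 0.44) and Mgp (0.28, −0.11 to 0.68) highest. In fibroblast-like cells 3 of 33 were past it lower and 1 higher, beside 1.99% past it higher and 2.69% lower over all genes. Lum, a small proteoglycan of collagen fibrils and 1 of the markers that named the class, was at 382 and 166 CPM (−1.20, −1.39 to −1.01), Mfap4 at 67.1 and 29.2 CPM (−1.20, −1.67 to −0.74) and the matricellular Thbs1 at 269.9 and 143 CPM (−0.92, −1.13 to −0.71). Smoc1, a relative of Sparc, was higher at 189.7 and 290.3 CPM (0.61, 0.41 to 0.82), and Vtn, also a pericyte marker, was next (0.53, 0.48 to 0.58). The list's genes had a median log2 ratio of 0.24 in endothelial-like, −0.014 in mural-like and −0.12 in fibroblast-like cells, beside 0.021, −0.049 and −0.042 over all genes.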

How the data were processed

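Fixed single cells of 2 hippocampal libraries, control and tomatidine, were profiled with probes (10x Fixed RNA Profiling), which count a gene only where its probes bind. The authors aligned the reads to mm10 with Cell Ranger (8.0.0 in the submitters' processing notes, 7.1.0 in the matrix header) and deposited UMI counts per gene and cell after cell calling. These counts were used as deposited, with no normalization in the files.

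Cells were kept with at least 500 UMIs, 250 genes, a complexity (log10 genes over log10 UMIs) of 0.8 and under 20% mitochondrial UMIs. Scrublet in scanpy 1.11.5 called 0 and 2 doublets, so that its own calls had not worked, and the 2% of cells with the highest score were removed in each library. Seurat 5.3.0 (R 4.3.3) integrated the libraries (RPCA, 2000 variable genes, 30 components) and clustered them at resolution 0.8. The 61 matrix genes and those genes of the matrix lists that are no cell marker were among 149 left out of the variable genes. Clusters were named from 180 markers of 16 classes (178 in the files). None is among the 61 matrix genes, but some, such as Lum and Vtn, are in the list of other matrix proteins. A name was given if 1 class led the cluster's 10 genes of highest fold and had at least 3 markers raised 2-fold and found in 10% of cells. After the clusters were seen, the rule was loosened so that another class could tie in raised markers, because the endothelial-like cluster had 13 of each of endothelial and mural markers. In all, 18 of 36 clusters stayed unnamed, and any departure from the study can stem from this renaming.

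UMIs were summed per class and library and divided by all UMIs of the class (CPM). With 1 library per group there is no test between groups. Intervals are 95% and cover counting error only: exact Poisson for UMIs, exact conditional binomial for ratios and exact binomial for shares (scipy 1.17.1). List medians took genes with 20 or more UMIs over both libraries, and differences of 1.5-fold or more were singled out at 100 or more. On simulated endothelial-like counts, 93.5% of 200 genes changed 2-fold among 10234 were recovered, and 0.339% of the unchanged genes passed 1.5-fold. Those counts held Poisson error only, with no variation between cells, mice or libraries, so the recovery speaks for counting error alone. The genes and lists were chosen with earlier results of these data known. Named genes were 19 fixed basement membrane and fibrillar genes, genes with 100 UMIs in endothelial-like, mural-like or fibroblast-like cells, genes past 1.5-fold in any named class, the class where each gene was highest in both libraries, and the 2 genes at each end of every list. Genes named beside them (cell markers, Col4a3, Col7a1 and those at a minimum) were chosen after their values were seen. Promoters came from RefSeq (GRCm38.p6) and gene positions from GENCODE (GRCm38). TMM factors came from edgeR 4.0.16. The 12 alternatives and 2 added after seeing the data are given at the end. Values of 1 laminin gene are not reported here, though its UMIs stay in the sums and counts.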

Additional observations from a re-analysis of the deposited data

Results flagged for a closer look

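Col18a1, a multiplexin collagen of vessel and epithelial basement membranes, differed in opposite directions between the libraries in 2 classes. In endothelial-like cells its log2 ratio of tomatidine over control was 0.82, and in fibroblast-like cells it was −0.70. It is given here because the sign differed between cell classes under the same contrast, with 1 library of each diet. The difference was not tested. Over the alternative ways of choosing and counting cells that gave a value, the endothelial-like ratio ranged from 0.63 to 1.06 and the fibroblast-like ratio from −0.87 to −0.49.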

How the results depend on the processing

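Of the values for single genes under the alternatives, 261 in endothelial-like, 63 in mural-like and 373 in fibroblast-like cells stayed within the interval of the value reported, 67, 5 and 34 moved beyond it, and 5, 1 and 0 changed the sign of a difference past 1.5-fold. For the summary values these numbers were 27, 24 and 32 within the interval and 13, 7 and 5 beyond it. In endothelial-like cells the log2 ratio of the summed core basement membrane genes (0.059) was 0.20 with all deposited cells, −0.11 with the stricter limits of under 6000 genes and under 10% mitochondrial UMIs, −0.13 in cells gated by at least 4 markers, 0.0034 as a mean over cells and −0.044 in cells with under 3 mural markers, an alternative chosen after seeing the data. The 8 genes past 1.5-fold became 2 with the stricter limits, 5 without integration, 5 at resolution 0.3, 4 with the marker gate, 0 without cells holding other markers, 0 in cells with under 3 mural markers, 15 at a minimum of 20 UMIs and 2 at a minimum of 300. Col1a2 turned to −0.36 with the stricter limits and −0.23 with the gate, Col15a1 to −0.070 with the gate and −0.35 as a mean over cells, and Col3a1 to 0.42 without the richest cell, the other alternative chosen after seeing the data. In mural-like cells the 1 gene past 1.5-fold became 5 with the gate, 0 without cells holding other markers (5 and 12 cells), 2 with TMM factors, 0 as a mean over cells, 5 at a minimum of 20 UMIs and 0 at 300. With the gate the core ratio moved from 0.014 to 0.54 and Col4a2 turned to 0.60. No mural-like cluster was named at resolution 0.3 or without integration, so these gave no value. In fibroblast-like cells the core ratio (−0.15) was −0.0854 with all deposited cells, −0.23 with the stricter limits and 0.13 without cells holding other markers, and the 3 genes past 1.5-fold became 0 without those cells and 9 at a minimum of 20 UMIs. The cause was not tested in any of these, except that fewer genes or cells enter at a higher minimum or under a gate. Without cells holding other markers, 9.81% of all genes in endothelial-like and 8.33% in fibroblast-like cells were past 1.5-fold. In endothelial-like cells with under 3 mural markers 7.8% were. No such share is given for the other alternatives, so changes in the number of matrix genes past 1.5-fold are not read as results about them. The median over all genes moved by under 0.1 except by 0.11 in mural-like cells without other markers. Of the 3 vessel and meningeal classes, depth limits the mural-like one most, with 8 of the 61 genes at 100 UMIs. No paired analysis was possible because each diet had 1 library and the values come from no test.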
